A study of Mus musculus with 50 samples.

Results

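Skeletal muscle fibre genes were read in the wound bed of amputated mouse digits as a measure of how much muscle each sample held. The 10 genes, taken by name out of 21954 in the deposited digit table, were Acta1, Myh1, Myh2, Myh4, Ckm, Mylpf, Tnnt3, Tnni2, Actn3 and Pygm, and all 10 were present in that table. The samples were tissue around the wound bed of 41 distal terminal phalanges (P3, the last bone of digit 3 of the hindlimb) of young adult male C57Bl/6 mice, each sequenced as 1 library of polyadenylated RNA. Non-regenerative digits (NR in the labels, 29 digits with labelled amputation levels of 60 to 80% of P3, although the study defines this outcome by removal of more than 67%) were taken 0, 3, 6, 12 and 24 hours or 3, 7, 14 and 21 days after amputation, with 3 digits at each time and 5 at 7 days. Intermediate digits (called Medium in the labels, 12 digits at 41 to 55%, abbreviated Int) were taken at 0 and 24 hours and at 14 and 21 days, with 3 at each time. All digits shared the amputation and no digit in these files was left uncut, so the 0 hour digits stood as the reference. The same series holds 9 libraries of macrophages grown from bone marrow of female C57BL/6 mice, 3 untreated (M0), 3 given IFN-γ and LPS (M1) and 3 given IL-4 (M2). The labels describe each digit as a mix of cells and give no animal, and both hindlimbs of a mouse were operated on, so p-values measure the spread between digits.

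A skeletal muscle fibre contracts when myosin heads of the thick filament pull on actin of the thin filament. Calcium lets this happen by binding the troponin complex, and creatine kinase and glycogen breakdown supply the energy. Fast fibres use their own set of isoforms, and their mRNAs are among the most abundant in limb muscle. The muscles that move a digit lie in the foot and leg and reach the bones of the toe through tendons. Among the 10 genes, Acta1 encodes skeletal α-actin, Myh1, Myh2 and Myh4 the adult fast myosin heavy chains IIx, IIa and IIb, and Mylpf the fast regulatory light chain. Tnnt3 and Tnni2 encode the fast troponins T and I, Actn3 the α-actinin of fast Z-discs, Ckm the muscle creatine kinase and Pygm the muscle glycogen phosphorylase.

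Positions are given on the GRCm38 genome with the whole gene of GENCODE M21, whose gene identifiers matched the table for all 10. Myh2 (ENSMUSG00000033196, chr11:67171027-67197517), Myh1 (ENSMUSG00000056328, chr11:67200052-67224575) and Myh4 (ENSMUSG00000057003, chr11:67238029-67260446) follow each other on the plus strand within 89420 bases. Tnni2 (ENSMUSG00000031097, chr7:142441808-142444410) and Tnnt3 (ENSMUSG00000061723, chr7:142498836-142516009), also on the plus strand, are 54425 bases apart. Ckm (ENSMUSG00000030399, chr7:19404776-19422841) and Mylpf (ENSMUSG00000030672, chr7:127208890-127214298) lie elsewhere on the same chromosome. Acta1 (ENSMUSG00000031972, chr8:123891769-123894751) is on the minus strand. Actn3 (ENSMUSG00000006457, chr19:4861216-4877909, minus strand) and Pygm (ENSMUSG00000032648, chr19:6384399-6398459, plus strand) share chromosome 19. Genes annotated on the opposite strand overlap Acta1, Myh1, Myh2, Ckm and Tnnt3, and whether reads were counted by strand is not given in the sources used here, so reads of such a pair could not be told apart. Of these opposite-strand genes, Gm20388 over Acta1 is in the table, with a median of 342 counts. The 3 myosins also share sequence. Of the distinct 31-base words in the annotated transcripts of Myh1, 37.9% also occur in transcripts of another gene, against 32.8% for Myh2 and 30.4% for Myh4, mostly in each other and in Myh8, the neonatal myosin. Counts of a few reads could therefore be split among these myosins, and their separate values are uncertain. The share was 4.11% for Acta1 and at most 1.18% for the other 6 genes.

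Promoter sequence from RefSeq (GRCm38.p6), available for 7 of the 10 genes, is shown for the genes of actin, a myosin and creatine kinase, which stand for the thin filament, the thick filament and the energy supply of the fibre. The 120 bases before the start site are printed 5′ to 3′ on the strand of the gene, with capitals for a TATA box (TATAAA), a CArG box (bound by serum response factor) or a MEF2 site on either strand.
Acta1, chr8:123894776-123894895, minus strand: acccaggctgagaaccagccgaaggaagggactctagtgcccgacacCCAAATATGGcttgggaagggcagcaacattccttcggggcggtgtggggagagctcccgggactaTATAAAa
Myh4, chr11:67237692-67237811, plus strand: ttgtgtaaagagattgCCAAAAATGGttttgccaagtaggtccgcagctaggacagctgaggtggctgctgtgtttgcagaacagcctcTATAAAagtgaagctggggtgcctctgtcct
Ckm, chr7:19410974-19411093, plus strand: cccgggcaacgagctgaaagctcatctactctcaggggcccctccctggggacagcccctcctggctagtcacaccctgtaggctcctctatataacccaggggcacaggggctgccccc
Within 250 bases before the start site, a CArG box was found in 2 of the 7 promoters, those of Acta1 and Myh4, and in 1.47% of the 32851 promoters of the table. TATAAA was found in 3 (Acta1, Myh1 and Myh4) and in 12.4% of all. The MEF2 site was found in 2 (Myh1 and Myh4) and in 2.92% of all, both times overlapping a TATAAA, and the E-box CANNTG, bound by MyoD, in 5 and in 66.2% of all. The printed Ckm stretch held none of the 3 capitalised motifs. These matches describe letters and were not linked to binding.

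Before the results, several libraries must be named. Digit libraries held 1468749 to 13011782 expected counts (estimated read counts per gene), with a median of 6835347, so that 3 counts, used here as the floor for calling a gene present, corresponded to 0.233 to 1.88 counts per 1000000 (CPM, with library sizes normalised by TMM). The NR digit labelled 65% at 7 days had counts in 10096 genes, the fewest of all, against a median of 15213, and the NR digit labelled 77% at 14 days had the lowest normalisation factor, 0.652. The labels give a date for each digit, of unstated meaning, and 17 digits carried later dates (median total of 9637000 counts) and 24 earlier ones (5371000). NR digits at 3 and 12 hours had earlier dates only and NR digits at 21 days later dates only, so date and time could not be told apart there. Int digits at 21 days had earlier dates only, so that at 21 days Int and NR digits differed in date as well as in group. An Int and an NR digit at 14 days carry the same mark, date and side. Some digits of different times also share all of these, such as an NR digit at 0 hours and one at 12 hours. In bulk RNA, fewer fibres and less mRNA per fibre cannot be told apart.

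The fibre genes were close to absent. By raw totals, the 10 genes together held 3572 of 291287262 expected counts, which is 12.3 CPM of the pooled libraries. They fell into a scarce set of 6 genes, with a median of at most 3 counts per digit (Acta1, Myh1, Myh2, Myh4, Ckm and Actn3), and a detected set of 4 (Mylpf, Tnnt3, Tnni2 and Pygm), a division made after the values were seen. The scarce genes were present above 3 counts in 56 of 246 combinations of gene and digit, and the detected genes in 132 of 164. Without the digits labelled 65% at 7 days and 77% at 14 days that stood apart, these were 55 of 234 and 127 of 156, and without the 3 digits that combined at least 3 scarce genes above 3 counts with a sum over 6 CPM, described further on, 42 of 228 and 121 of 152. By the authors' normalised TPM, which takes gene length into account and so allows genes to be compared, the median level over digits was 7.98 for Tnni2, 6.89 for Mylpf, 3.74 for Tnnt3, 2.20 for Pygm, 0.240 for Acta1 and 0.119 for Ckm. Myh1, Myh2, Myh4 and Actn3 had a median of 0. On the same scale the smooth muscle actin Acta2 had a median of 122 and the keratin gene Krt14 a median of 5813. The order within the detected set was not the order in every digit, since each of the 4 was at 0 in at least 1 digit.

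**Figure D1:**
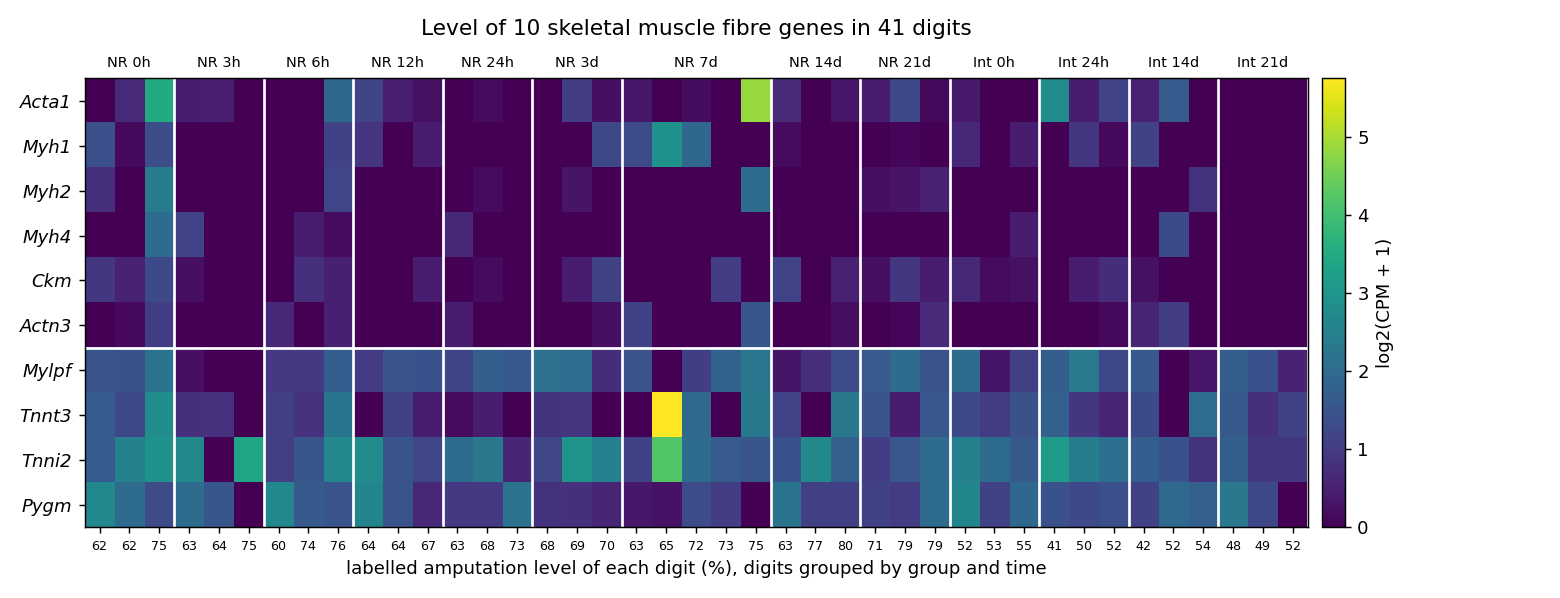
Level of each fibre gene (rows) in each of 41 digits (columns, labelled with the amputation level in % and grouped by group and time), as log2(CPM + 1). The upper 6 genes were near 0 in most digits, with Acta1 highest at 28.1 CPM, and the lower 4 were detected at a few CPM, except for Tnnt3 at 52.8 and Tnni2 at 17.2 CPM in 1 NR digit at 7 days.

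Acta1, the thin filament actin, showed the widest spread of the scarce genes, from 0 in 16 digits to 28.1 CPM in the NR digit labelled 75% at 7 days. At 0 hours its NR values were 0, 0.603 and 10.5 CPM in the digits labelled 62, 62 and 75%, and its Int values were 0.323, 0 and 0 CPM. The 10.5 CPM rested on 97.0 expected counts and exceeded every other 0 hour digit.
At 3 hours the NR values were 0.372, 0.389 and 0 CPM, at 6 hours 0, 0 and 2.80 CPM, and at 12 hours 1.28, 0.405 and 0.196 CPM. The 6 hour trace of 26.8 counts came from the digit labelled 76%, while the 6 hour digit labelled 74% had none. At 24 hours Acta1 was nearly absent from NR digits, at 0, 0.1199 and 0 CPM, while the Int digits gave 5.80, 0.363 and 1.25 CPM. The lowest Int value rested on 2.06 counts, under the floor, and the highest NR value on 1.03 counts.
At 3 days the NR values were 0, 1.1 and 0.175 CPM, and at 7 days 0.302, 0, 0.135, 0 and 28.1 CPM. At 14 days they were 0.644, 0 and 0.282 CPM in NR and 0.433, 2.18 and 0 CPM in Int digits. At 21 days they were 0.363, 1.36 and 0.0913 CPM in NR digits and 0 in all 3 Int digits. Within the groups that held a high digit, that digit alone set the mean, as at 7 days, where the mean was 5.72 ± 12.5 CPM (SD, n = 5).

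The adult fast myosins gave even fewer reads. Myh1 (IIx) was at 0 in 24 of 41 digits and above 3 counts in 11, with its highest values of 6.73 and 2.84 CPM in the NR digits labelled 65 and 72% at 7 days, both from the right side. Myh2 (IIa) was at 0 in 31 digits and above 3 counts in 5, with 4.12 CPM in the NR digit labelled 75% at 0 hours and 3.07 CPM in that labelled 75% at 7 days. Myh4 (IIb), the myosin of the fastest fibres, was at 0 in 34 digits and above 3 counts in 4, led by 3.08 CPM in the same 0 hour digit. Ckm, the muscle creatine kinase, reached at most 1.42 CPM, again in that 0 hour digit, and exceeded 3 counts in 13 digits. Actn3, the fast Z-disc actinin, reached at most 1.89 CPM and exceeded 3 counts in 7 digits. At 21 days none of the 6 scarce genes had a count in any Int digit, which allows sums of up to 0.484, 0.336 and 0.849 CPM in the 3 digits by the exact 95% Poisson limit. Such intervals cover counting error only.

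In 8 digits at least 3 scarce genes were above 3 counts. The summed level of the scarce genes was 1.42 to 4.69 CPM in 5 of them (labelled 62% at 0 hours and 79% at 21 days in NR, and 52% at 0 hours and 42 and 52% at 14 days in Int digits) and higher in the other 3, which were singled out after the values were seen. The NR digit labelled 75% at 0 hours was the only digit with all 6 scarce genes above 3 counts, at 97.0 for Acta1, 38.1 for Myh2, 28.5 for Myh4, 14.4 for Myh1, 13.1 for Ckm and 10 for Actn3. The NR digit labelled 76% at 6 hours had 5 of 6, and the NR digit labelled 75% at 7 days had Acta1 (119.2 counts), Myh2 (13) and Actn3 (8) but no Myh1, Myh4 or Ckm. The summed level of the 6 genes was 21.8 CPM (exact 95% Poisson interval 18.9 to 25.0), 6.26 CPM (4.78 to 8.06) and 33.1 CPM (27.9 to 39.1) in these digits, against a median of 1.29 CPM over all 41. The NR digit labelled 65% at 7 days also reached 6.73 CPM, from 32 counts of Myh1 alone. The 3 digits with the largest sums, those labelled 75% at 0 hours and 75 and 65% at 7 days, held 45.6% of all counts of the scarce genes.
Of 49 other muscle genes with a median of at most 3 counts, the 0 hour digit had 14 above 3 counts, the 6 hour digit 12 and the 7 day digit 11, against a median of 4 over all digits. They included Mb (myoglobin), Tcap (a titin cap protein), Trdn (triadin of the calcium store) and Myh7 (slow myosin), at 21, 20, 71 and 29.8 counts in the 0 hour digit. The NR digit labelled 80% at 14 days had 12 and the Int digit labelled 48% at 21 days had 11 such genes, with 3.29 and 0 counts of Acta1. The 3 digits singled out, labelled 75% at 0 hours, 76% at 6 hours and 75% at 7 days, carried later dates. The other 5 digits with at least 3 scarce genes above 3 counts had levels of 42 to 79%, 2 of them with earlier dates. Date and level were tested across all digits further on.

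**Figure D2:**
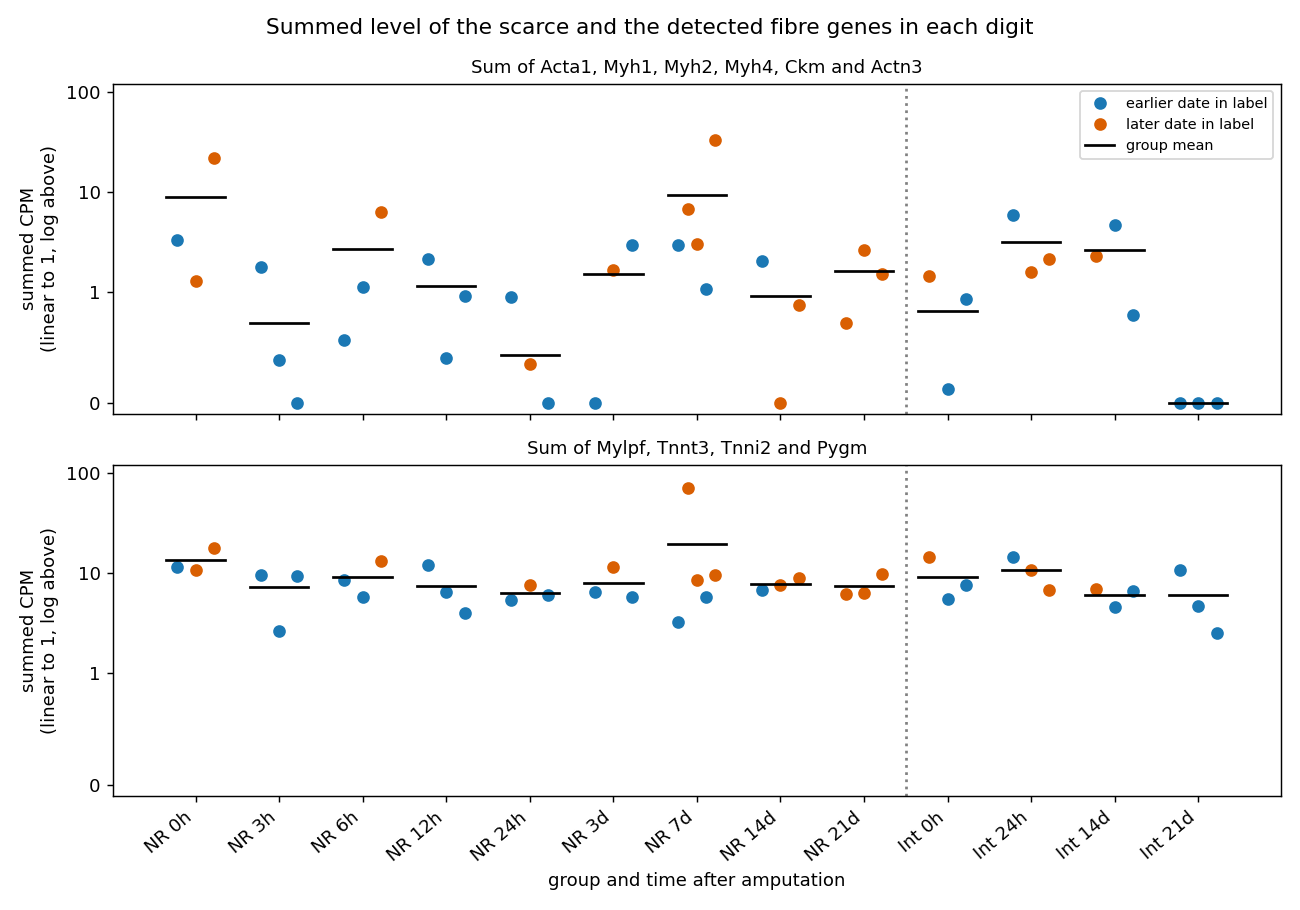
Summed CPM of the 6 scarce genes (top) and the 4 detected genes (bottom) in each digit (points, coloured by label date) with the group mean (line), by group and time. The axis is linear up to 1 and logarithmic above, and the scarce sum spans 0 to 33.1 CPM while the detected sum stays between 2.53 and 17.8 CPM except for 70.2 CPM in 1 NR digit at 7 days.

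The detected genes were present in most digits at a few CPM and their group means neither rose nor fell at every step after amputation. Tnnt3, which anchors the troponin complex to tropomyosin, was at 2.18, 1.37 and 6.06 CPM in the NR digits at 0 hours and at 1.41, 1.03 and 1.69 CPM in the Int digits. Its NR values were 0.730, 0.763 and 0 CPM at 3 hours, 1.13, 0.767 and 3.74 CPM at 6 hours and 0, 1.15 and 0.381 CPM at 12 hours. At 24 hours they were 0.119, 0.349 and 0 CPM in NR digits, below each 0 hour digit, and 2.40, 0.881 and 0.519 CPM in Int digits, each above each NR digit.
At 3 days the NR values were 0.805, 0.824 and 0 CPM. At 7 days the 5 digits gave 0, 52.8, 2.98, 0 and 4.01 CPM, a range within which the other times fit. At 14 days they were 1.25, 0 and 3.94 CPM in NR and 1.46, 0 and 3.18 CPM in Int digits. At 21 days they were 1.86, 0.386 and 1.95 CPM in NR and 2.10, 0.729 and 1.15 CPM in Int digits, and the groups overlapped at both late times.

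Tnni2, which blocks the myosin site on actin at rest, was above 3 counts in 38 of 41 digits, with a median of 2.36 CPM. Its group means ran from 1.40 ± 0.835 CPM in Int digits at 21 days and 1.60 ± 0.758 at 14 days to 5.02 ± 4.74 in NR digits at 3 hours, 5.12 ± 6.81 (n = 5) at 7 days and 5.25 ± 2.49 in Int digits at 24 hours (SD, n = 3 where not given). The remaining group means lay between 2.005 and 4.53 CPM, and neighbours in this order differed by less than the spread between digits. At 7 days 17.2 CPM came from the NR digit labelled 65%.
Mylpf, the fast light chain, had a median of 1.71 CPM and was above 3 counts in 32 digits. Its group means ran from 0.0608 ± 0.105 CPM in NR digits at 3 hours, where the values were 0.183, 0 and 0 CPM, to 2.55 ± 1.36 CPM in Int digits at 24 hours. The next lowest means were 0.749 ± 1.077 CPM in Int and 0.846 ± 0.652 CPM in NR digits at 14 days. In the NR digit labelled 65% at 7 days, where both troponins were highest, Mylpf was at 0.
Pygm, which releases glucose phosphate from glycogen, had a median of 1.49 CPM and was above 3 counts in 34 digits. Its group means ran from 0.614 ± 0.636 CPM (n = 5) in NR digits at 7 days and 0.675 ± 0.148 CPM at 3 days to 3.08 ± 2.07 CPM in Int and 3.34 ± 1.98 CPM in NR digits at 0 hours. At 3 days the 3 digits gave 0.805, 0.706 and 0.514 CPM, all below the lowest 0 hour NR digit at 1.52 CPM. The highest values were 5.46, 5.45 and 5.28 CPM, in NR digits at 0 and 6 hours and an Int digit at 0 hours.

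The spread between digits of a group was wide for Acta1 and the troponins. As the pooled SD of log2(CPM + 1) within groups, it was 1.10 for Acta1, 1.09 for Tnnt3, 0.893 for Tnni2, 0.707 for Pygm and 0.602 for Mylpf, against a median of 0.635 over 14996 genes that passed the count filter across all digits. Acta1 and Tnnt3 varied more than 96.6% and 96.3% of these genes. The detected genes differed between the highest and lowest digit of a group by 1.22-fold (Pygm, Int at 24 hours) to 14.6-fold (Tnni2, NR at 7 days) where the lowest digit had over 3 counts. Counting noise alone gives a variance ratio near 1 (chi-square per degree of freedom within groups), and the ratio was 2.68 for Ckm, 4.45 for Mylpf, 6.71 for Pygm, 12.4 for Tnni2, 32.1 for Acta1 and 35.4 for Tnnt3. For all genes passing the filter the median was 15.9. The ratio grows with the counts of a gene, so it does not rank the members against genes with more counts.

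The change after amputation in NR digits was tested for each time against 0 hours with edgeR's quasi-likelihood test over all genes that passed a count filter, and a gene was called at an adjusted p under 0.05 and a more than 2-fold change. At 24 hours 1 of 4 members tested was called, Tnnt3, where 10.7% of 13420 genes were called. Its log2 fold change was -4.10 ± 0.99 (SE) with an adjusted p of 0.0265, from mean normalised counts of 25.3 to 1.24. The values rested on 82 counts in the 3 digits at 0 hours and 4 counts in the 3 digits at 24 hours, and the pooled ratio of 18.6 had an exact 95% interval of 6.98 to 69.8 from counting error alone. The adjusted p was 0.133 without the 0 hour digit labelled 75%, 0.108 and 0.0645 without the 24 hour digits labelled 63 and 73%, and 0.244 with all 41 digits in 1 fit. Smooth muscle markers moved in the same comparison: 4 of 7 tested (Lmod1, Myh11, Cnn1 and Synpo2) were lower and their summed level was 282 to 341 CPM at 24 hours against 420 to 958 CPM at 0 hours, and their part in the Tnnt3 result was not tested. Tendon markers Tnmd and Fmod were also called lower there, with the summed tendon level at 123 to 176 CPM against 250 to 305 CPM, and their part was not tested either.
At the other times no member was called. At 3 hours 2 members were tested and 0% of genes were called, at 6 hours 4 members and 4.85%, and at 12 hours 3 members and 11.4%. Of 4 members tested on each later day, none was called, and the share of all genes called was 0.723% on day 3, 0.0537% on day 7, 0% on day 14 and 0.452% on day 21. In each of these fits DESeq2 also called 0 members. These shares of all genes depended on single digits, with 271 genes called at 14 days without the digit labelled 77%, 78 at 7 days without that labelled 65% and 84 at 3 hours without replicate 1 at 0 hours. The count at an unadjusted p under 0.05 was 1, Pygm at 3 days, with a log2 fold change of -2.29 ± 0.72 and an adjusted p of 0.255. The members with the largest fitted change at the other times were Pygm at 3 hours (-0.83 ± 1.04), Tnnt3 at 6 hours (-0.71 ± 0.78), Tnni2 at 12 hours (-0.63 ± 0.68) and Tnnt3 at 7 days (1.84 ± 1.79). At 14 and 21 days they were Mylpf (-1.43 ± 0.92) and Tnnt3 (-1.22 ± 0.76). Each was less than 2 SE from 0. At least 6 members went untested at each of these times for lack of counts, among them every scarce gene except Myh1 at 3 and 7 days. Without the count filter all 10 members were tested at each of these times and 0 were called.

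As a description without a test, the median difference in log2 CPM over all 10 members, untested ones included, was below 0 at each NR time against 0 hours, from -1.64 at 3 hours to -0.67 at 7 days. These log2 values were taken after adding edgeR's prior count of 2, scaled to library size, in place of a pseudocount of 1. For genes near 0 the size of a difference depends on that choice. The median over all genes lay between -0.24 and 0.01. All 8 comparisons share the 3 digits at 0 hours, among them the digit with all scarce genes. Without that digit the median over the members at 3 days was -0.289 in place of -1.15. The pooled SD of this median between digits of a group was 0.750.

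In Int digits no member was called against 0 hours at 24 hours (3 tested, 0.0152% of genes called), 14 days (3 tested, 1.68%) or 21 days (4 tested, 1.39%) by edgeR or DESeq2, and none had an unadjusted p under 0.05. The members with the largest change were Pygm at 24 hours (-0.95 ± 0.63), Tnni2 at 14 days (-1.01 ± 0.59) and Tnni2 at 21 days (-1.23 ± 0.62, adjusted p = 0.355). The Int and NR digits were then compared at the same time. No member was called by either tool at 0 hours (4 tested, 0% of genes called), 24 hours (3 tested, 0%), 14 days (3 tested, 0%) or 21 days (4 tested, 0.648%), and none had an unadjusted p under 0.05. At 21 days group and date cannot be told apart, since all Int digits had earlier and all NR digits later dates, and the 89 genes called there fell to 0 with all digits in 1 fit. At 24 hours the count of all genes called rose from 0 to 653 without the Int digit labelled 41%, with no member called. The largest differences were Tnnt3 at 0 hours (-1.23 ± 0.65), Tnni2 at 24 hours (1.02 ± 0.68), Tnni2 at 14 days (-1.05 ± 0.87) and Mylpf at 21 days (-0.59 ± 0.62), as log2 Int over NR. A p that misses the threshold does not show that the groups were alike, and at this depth differences of more than 2-fold lie within 2 SE of each of these values.
Whether the change from 0 hours differed between Int and NR digits was tested as an interaction. No member was called at 24 hours (5 tested, 0% of genes called), 14 days (4 tested, 0%) or 21 days (4 tested, 0%). At 24 hours 2 members had an unadjusted p under 0.05. The change in Tnnt3 from 0 hours was higher in Int than in NR digits by 3.97 ± 1.28 on the log2 scale, with an adjusted p of 0.557. For Acta1 the p was 0.00218 and the adjusted p 0.498, and its fitted difference depended on digits at 0. At 14 and 21 days the largest interaction was that of Tnnt3, at 0.96 ± 1.80 and 1.16 ± 1.06.

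The labelled amputation level and the label date were tested across all 41 digits with group and time in the fit. With level, no member of 6 tested was called, as was 0% of 14996 genes, and none had an unadjusted p under 0.05. The largest slope was that of Acta1, at 1.35 ± 0.99 log2 units for each 10 percentage points (adjusted p = 1). Of the 9 digits labelled 74 to 80%, 7 had at least 1 scarce gene above 3 counts, against 14 of 20 digits labelled 60 to 73% and 6 of 12 labelled 41 to 55%. The median of the scarce sum was 1.51, 1.18 and 1.18 CPM in these ranges, so that the high values at 75 and 76% belonged to 3 of the 9 digits. Label date and sequencing depth also differed between these ranges, and their part in the counts of digits was not tested.
With later against earlier dates, no member of 6 tested was called, whereas 8.23% of 14996 genes were. Tnni2 had a log2 difference of 1.1 ± 0.44 (later minus earlier, adjusted p = 0.131) and Mylpf one of 0.99 ± 0.48 (adjusted p = 0.222), both with an unadjusted p under 0.05. The largest fitted value was that of Acta1, at 2.16 ± 1.18 (adjusted p = 0.291). Without the Int digit labelled 41% at 24 hours, Tnni2 was called, with a log2 difference of 1.38 and an adjusted p of 0.0495. At least 1 scarce gene was above 3 counts in 15 of 17 digits with later dates and in 12 of 24 with earlier dates, and the part of the deeper sequencing of the later digits in this count was not tested.

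**Figure D3:**
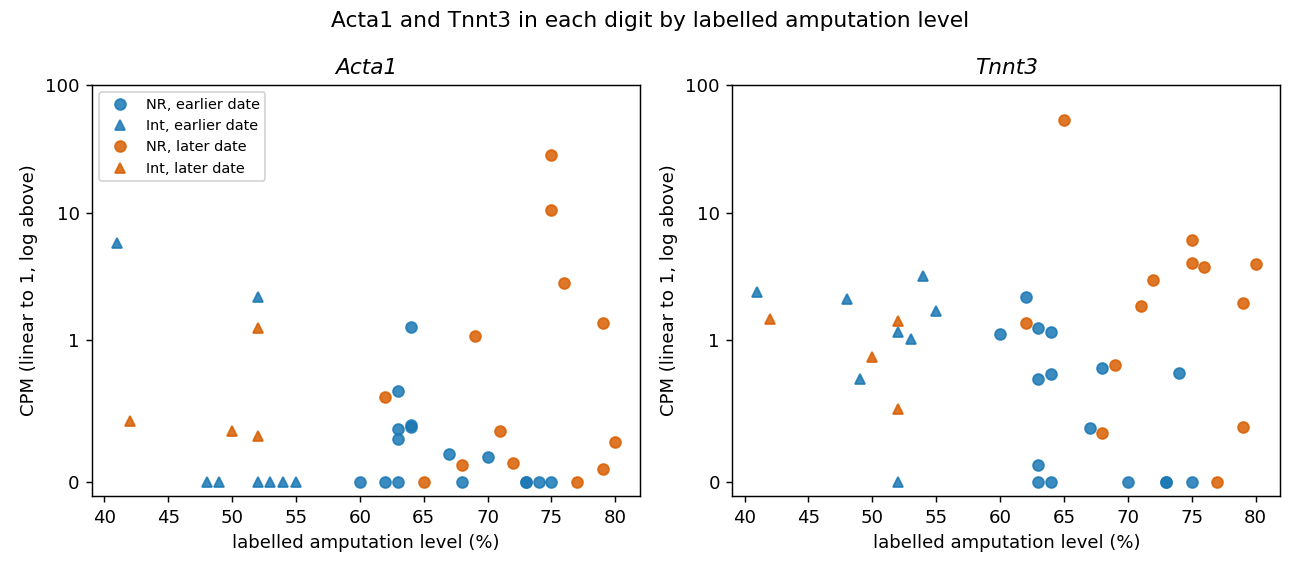
CPM of Acta1 (left) and Tnnt3 (right) in each digit against its labelled amputation level, with circles for NR and triangles for Int digits and colour for the label date (axis linear up to 1, logarithmic above). The 2 highest Acta1 values, 28.1 and 10.5 CPM, were both at 75%, and the highest Tnnt3 value, 52.8 CPM, was at 65%.

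Many other genes of muscle fibres were as scarce, while some genes that other cell types also use were abundant. Of 20 other fast fibre and sarcomere genes, 13 had a median of at most 3 counts, among them Myl1 and Tnnc2 (fast light chain and troponin C) at 0, and 3 never exceeded 3 counts, Myoz1, Myot and Smpx. The other 7 were led by Tpm2 and Tpm1, the tropomyosins, at a median of 440 and 340 CPM, and Myom1, an M-band protein, at 5.88 CPM. Actn2, Ldb3 and Neb, of the Z-disc and thin filament, had medians of 1.94, 1.74 and 1.55 CPM, and Myom2 one of 0.473 CPM. Tropomyosins also serve in smooth muscle and in non-muscle cells. Of 18 calcium handling and excitation genes, 12 had such a median, and the highest mean levels were those of Ryr1 (the calcium release channel), Jph2 and Jph1 (junctophilins), with medians of 2.84, 2.1 and 2.19 CPM. Of 10 slow fibre genes, 6 had such a median, including the slow myosin Myh7 at 0, while Atp2a2, a calcium pump of many tissues, stood at 490 CPM.
Of 15 muscle energy metabolism genes, 7 had such a median. Pfkm, the muscle phosphofructokinase, was present in each digit with a median of 35.3 CPM, and was called lower in NR digits at 6 hours (log2 fold change -1.07 ± 0.24), 12 hours (-1.83 ± 0.36) and 24 hours (-1.80 ± 0.25, adjusted p = 0.00296). Phka1, a phosphorylase kinase subunit, was lower at 24 hours (-1.36 ± 0.27, adjusted p = 0.0130). No other gene of the energy, sarcomere, calcium or slow fibre lists was called in any comparison between times or between Int and NR digits.
Muscle stem cell genes ranged from absent to a few CPM. Of 8 satellite cell and myogenic genes in the table, Myod1, Myf5 and Myf6, which commit cells to muscle, were listed at 0 in all 41 digits, and Myog never exceeded 3 counts. Megf10, a receptor of satellite cells, and Des, the muscle intermediate filament also made by smooth muscle, had medians of 1.91 and 1.69 CPM and were above 3 counts in 34 digits each. Pax7, the satellite cell factor, had a median of 0.706 CPM and reached 20.7 CPM in the NR digit labelled 75% at 3 hours, the library with the fewest counts. Among 7 genes of embryonic, neonatal or denervated fibres, 5 had a median of at most 3 counts. Chrna1, the acetylcholine receptor α subunit, was higher (4.37 ± 1.04, adjusted p = 0.0246) and Ncam1, an adhesion molecule also made by nerve, lower (-1.96 ± 0.46, adjusted p = 0.0240) in NR digits at 24 hours. Ncam1 was higher in Int digits at 14 days (1.67 ± 0.30, adjusted p = 0.0310). Fbxo32, an atrophy ubiquitin ligase, had a median of 34.2 CPM and was lower in NR digits at 24 hours (-1.18 ± 0.31, adjusted p = 0.0347), while Trim63, its partner in muscle wasting, had a median of 0.
With later dates, Tpm2 (0.85 ± 0.18), Lmod2 (3.51 ± 1.05), Trdn (5.53 ± 1.496) and Tnnc1 (3.77 ± 0.69) were called higher, the only genes called for date in the 7 lists of skeletal muscle genes outside the members. The fitted values of Lmod2 and Trdn, at 0 in 21 and 34 digits, depend on those zeros. Each of these genes was highest in the NR digit labelled 65% at 7 days, which has a later date. Their date differences without that digit were not examined.

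**Figure D4:**
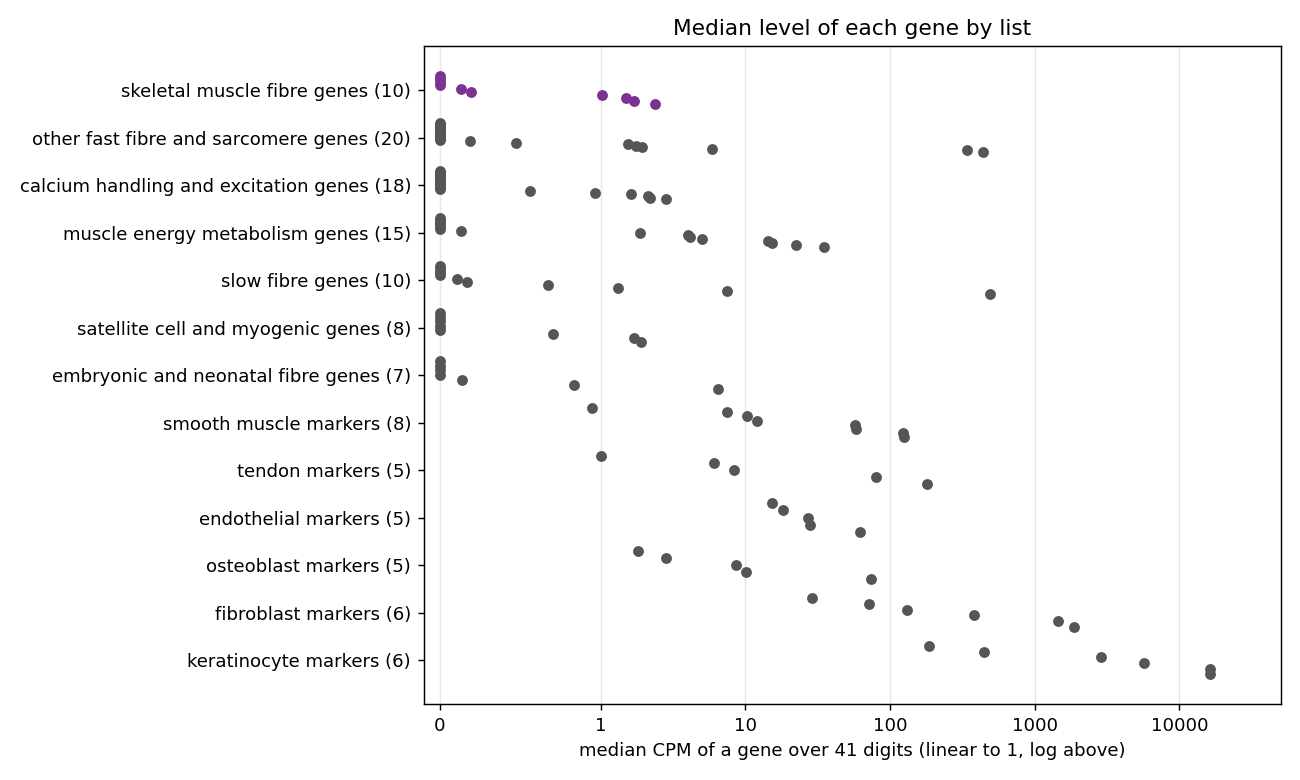
Median CPM over 41 digits of each gene (points) in the fibre set and in 12 other lists, on an axis linear to 1 and logarithmic above. The 10 fibre genes lie at or below 2.36 CPM, whereas the keratinocyte markers lie between 187 and 16350 CPM.

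Markers of most other tissues of the digit were plain in the same libraries, but adipocyte markers had a median sum near that of the fibre genes. The summed level over digits ranged from 25910 to 81230 CPM for 6 keratinocyte markers, from 639 to 42760 CPM for 6 fibroblast markers, from 98.1 to 1514 CPM for 5 tendon markers and from 152 to 958 CPM for 8 smooth muscle markers. It ranged from 27.0 to 271 CPM for 5 endothelial markers and from 4.6 to 1823 CPM for 5 osteoblast markers. Neutrophil and macrophage markers (5 each) summed to 0.565 to 674 CPM and 28.5 to 682 CPM, and adipocyte and heart markers (5 each) to medians of 8.45 and 2.67 CPM. The sum of the 10 fibre genes was 2.53 to 77.0 CPM, with a median of 9.01 CPM. Actc1, the heart actin, was at a median of 0, and the smooth muscle actin Acta2 at a median of 124 CPM, against 0.196 CPM for Acta1.

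In the NR digit labelled 65% at 7 days the troponin signal was not joined by actin. This digit, from the right side, had 251 counts of Tnnt3, 82 of Tnni2 and 32 of Myh1, but 0 of Acta1, Myh2, Myh4, Ckm, Actn3 and Mylpf and 1 of Pygm. It also had the highest CPM of Tnnc1 (25.4, cardiac and slow troponin C), Actn2 (19.9, the other sarcomeric actinin), Lmod2 (9.04), Trdn (14.5), Myh8 (9.55, neonatal myosin) and Tpm2 (1426). These genes were named because they peaked there, and the library had counts in the fewest genes of all. Of the 49 other muscle genes with a median of at most 3 counts, it had 4 above 3 counts, equal to the median of 4 over all digits. With this digit left out, no member was called at 7 days against 0 hours, as with it.

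The fibre genes were also looked for in the cultured macrophages, which hold no muscle fibres and carry 15683424 to 27904773 counts each. The 2 tables were processed separately, so levels are set side by side without a test. Myh1, Myh2 and Myh4 had 0 counts in all 9 macrophage libraries, and Ckm had at most 1 count. Acta1 had 4 to 6 counts in the M0 libraries, at 0.223 ± 0.0523 CPM (SD, n = 3) against the digit median of 0.196 CPM, and at most 4 counts in the others.
Tnni2 was at 3.46 ± 0.332 CPM in M0 macrophages, with 79 to 86 counts a library, above the digit median of 2.36 CPM, and at 0.188 ± 0.151 CPM in M1 and 0.148 ± 0.0776 CPM in M2 (SD, n = 3). The M0 libraries did not overlap the others. Pygm was at 1.29 ± 0.374 CPM in M1, 0.466 ± 0.0716 in M0 and 0.297 ± 0.0751 in M2 macrophages, and M1 did not overlap the others. Mylpf was at 0.384 ± 0.0452 CPM in M1, 0.178 ± 0.0850 in M0 and 0.271 ± 0.143 in M2 macrophages, below the digit median, and Tnnt3 had at most 3 counts in any macrophage library. Actn3 reached 0.355 ± 0.123 CPM in M2 with 7 to 12 counts. Of the 4 detected genes, by CPM Tnni2 in M0 macrophages thus lay above its digit median, and the other 3 lay below theirs in every kind of macrophage. By normalised TPM, Pygm in M1 macrophages, at a mean of 2.82, also lay above its digit median of 2.20.

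**Figure D5:**
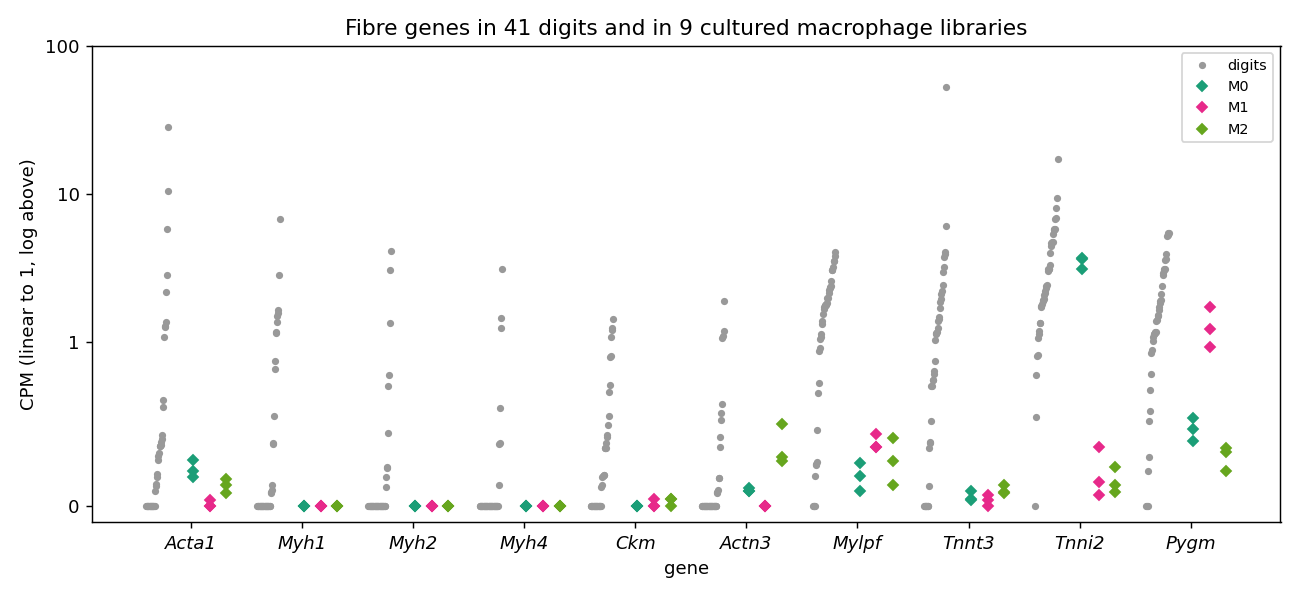
CPM of each fibre gene in 41 digits (grey points, sorted) and in the M0, M1 and M2 macrophages, with 3 libraries per kind (diamonds), on an axis linear to 1 and logarithmic above. Tnni2 in M0 (3.46 CPM on average) and Pygm in M1 (1.29 CPM) lie among the digit values, and the 3 myosins are at 0 in all macrophages.

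Among genes that passed the count filter, the 10 whose levels followed the fibre genes most closely over the 41 digits were outside the muscle lists. The filter kept 7 of 20 other fast fibre and sarcomere genes, 7 of 18 calcium handling genes and 5 of 10 slow fibre genes. Muscle genes that it left out could not appear in the ranking. By Spearman's rho between log2(CPM + 1) and the mean of the 10 members, among 14990 genes that passed the filter, the 10 highest were Nsrp1 (0.75), Fhad1 (0.75), Srrt (0.69), Igsf11 (0.69), Gpatch11 (0.69), Ctr9 (0.69), Clrn1 (0.69), Pdhb (0.69), Paf1 (0.69) and Vhl (0.68). The digits share depth, and the member mean had a rho of 0.41 with the library total. Nsrp1, Fhad1, Srrt, Gpatch11, Ctr9 and Paf1 were highest in the NR digit labelled 65% at 7 days. These correlations are a description over digits of mixed times and groups.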

How the data were processed

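RNA of 41 digits and 9 macrophage cultures was selected for poly(A) and sequenced by ligation-mediated libraries. The authors aligned reads with Bowtie to Ensembl transcripts of mouse (mm10) and deposited expected counts per gene from RSEM (1.2.3), which are not normalised and can split reads shared between genes. The deposited signal values are TPM that the authors scaled by median-by-ratio normalisation, and they were used to compare levels between genes. Digit and macrophage tables were processed separately.

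Expected counts were rounded and tested with edgeR 4.0.16 (filterByExpr, TMM, glmQLFit, glmQLFTest) in R 4.3.3, with Benjamini-Hochberg adjustment over all genes tested, in place of the EBSeq test of the study. A call required an adjusted p under 0.05 and, between 2 groups, mean normalised counts, each plus 1, that differed by more than 2-fold. CPM used TMM library sizes in digits and library totals in macrophages. Spreads of single genes and correlations used log2 values with a pseudocount of 1, as did log2 values of normalised TPM. Median differences in log2 CPM used edgeR's prior count of 2, scaled to library size. Totals ranged from 1468749 to 13011782 counts in digits, and 3 counts served as the floor. Intervals are exact 95% Poisson intervals and cover counting error only. On simulated counts for NR digits at 24 hours (13517 genes), 100% of 100 genes changed by 2 log2 units were recovered, with 8 false calls. The changed genes were drawn from genes with more counts than most members had, and all genes were given the same dispersion. Recovery of changes in the members therefore cannot be read from this simulation.

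Groups, levels and dates came from the sample labels. Fold changes are given for members called or, where none was, for the member with the largest change. Of the other lists, the text names genes called (at most 4 a list) or else the 3 with the highest mean level, and further names, as well as the division into scarce and detected genes, were chosen after values were seen. The 10 most similar genes were taken by Spearman's rho. The members and lists were chosen with earlier results of these data known. Alternatives were DESeq2 size factors, the DESeq2 1.42.0 test, no low-count filter, all digits in 1 fit with and without label date, no fold threshold, the deposited normalised TPM and leaving out each digit. Promoter sequences were those of RefSeq. Regenerative digits were not analysed here.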

Additional observations from a re-analysis of the deposited data

Results flagged for a closer look

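In the NR group at 7 days, the only group with enough digits for this check (5), the gap between the highest digit and the next exceeded 0.71 of the group's range for 5 of the 10 genes. Myh4 was at 0 in all 5 digits and had no gap to measure. Chance alone gives such a gap at either end in about 1 of 20 groups of normally distributed values, and at the high end less often. That rate does not hold for Myh2 and Ckm, which were at 0 in 4 of the 5 digits, so that any count in 1 digit gives the full gap, and the values of genes in 1 digit are not independent. Acta1 reached 28.1 CPM and Myh2 3.07 CPM in the digit labelled 75% (replicate 5). Tnnt3 reached 52.8 CPM and Tnni2 17.2 CPM in the digit labelled 65% (replicate 2), the library with the fewest genes detected. Ckm reached 1.074 CPM in the digit labelled 73% (replicate 4), on 5 counts, with none in the other digits.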

How the results depend on the processing

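The number of members called moved in 7 of 315 alternative counts and stayed in the other 308. For NR digits at 24 hours against 0 hours it was 1, and became 2 without the low-count filter, which added Acta1, 0 with all digits in 1 fit and 0 in that fit with label date. Leaving out single digits gave 0 to 1, with 0 without NR replicate 3 at 0 hours and NR replicates 1 and 3 at 24 hours. The log2 fold change of Tnnt3 in these 5 fits without the call was -4.12, -3.91, -3.24, -3.90 and -3.69, and its adjusted p was 0.244, 0.273, 0.133, 0.108 and 0.0645. The DESeq2 test kept the call (adjusted p = 0.00185). For label date, leaving out single digits gave 0 to 1 members, with 1 without Int replicate 1 at 24 hours. Of 107 alternative medians over the members, 102 stayed within the spread between digits. By normalised TPM the median difference from 0 hours in NR digits was -0.696 at 3 hours, -0.397 at 24 hours, -0.374 at 3 days and -0.42 at 14 days. Those values used a pseudocount of 1 and the CPM medians a prior count of 2, so the sizes on the 2 scales are not directly comparable. By CPM at 3 days, leaving out single digits gave -1.7 to -0.289, the latter without NR replicate 3 at 0 hours. The spread of log2 values within groups was 1.03 for Mylpf and 1.64 for Tnnt3 by normalised TPM. The cause of these moves was not tested.

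The count of all genes called depended on the tool and the fit. For all genes, edgeR called 0 genes in NR digits at 3 hours and DESeq2 called 196. The 6 hour counts were 638 by edgeR and 1113 by DESeq2, those on day 14 were 0 by edgeR and 354 by DESeq2, and with all digits in 1 fit the count fell from 1437 to 331 at 24 hours and from 638 to 116 at 6 hours, but rose from 7 to 163 on day 7 and from 0 to 731 on day 14. Leaving out single digits gave 108 to 605 genes at 6 hours, the lowest without replicate 3 at 0 hours. With 1 to 3 counts behind many values of the 6 scarce genes, depth limits what can be said of them. No paired analysis was possible because the labels give digits no replicate numbers, and the macrophage libraries, which share numbers, entered no test. With label date as a block, chosen after seeing the data, Int against NR digits gave 0 members called at 0 hours, 24 hours and 14 days, and 24, 1 and 0 genes in all.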
